A study of Mus musculus with 4 samples.

Results

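The genes described here are the mouse DNA methyltransferases Dnmt1, Dnmt3a and Dnmt3b and the TET dioxygenases Tet1, Tet2 and Tet3, measured in cultured helper T cells that lacked STAT4 or STAT6. They were taken as all probe sets whose platform annotation gives 1 of these symbols alone, which found 17 of the 34945 probe sets annotated to a single gene and 6 of 18193 genes. Dnmt1 had 3 of them, Dnmt3a 5, Dnmt3b 2, Tet1 4, Tet2 2 and Tet3 1.

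Naive CD4+CD44-CD62L+ T cells were sorted from mouse spleen and lymph nodes, stimulated for 3 days with antibodies to CD3 and CD28, then expanded for 4 days with interleukin-2 (50 U/ml). The groups were Th1 STAT4-deficient cells (genotype C57BL6-STAT4<tm1>), Th1 wild type cells (C57BL/6J), Th2 STAT6-deficient cells (B6.129S2©-STAT6<tm1Gru>/J) and Th2 wild type cells (C57BL/6J). Th1 cultures received interleukin-12, at 20 and then 10 ng/ml, and during activation an antibody against interleukin-4. Th2 cultures received interleukin-4 at 10 ng/ml and during activation an antibody against interferon gamma. All 4 groups were stimulated again for 2 h after the 7-day culture, with both antibodies and their own polarizing cytokine, so every array shows restimulated cells. One array was made per group, so none of the differences could be set against replicates or tested, and each describes these 4 arrays. Whether animals were pooled is not given in the sources used here.

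DNA methyltransferases add a methyl group to cytosine, in mammals mostly at CpG, the dinucleotide of C followed by G. DNMT1, brought to newly replicated DNA by UHRF1, copies methylation onto the daughter strand, whereas DNMT3A and DNMT3B set new methylation. TET enzymes use 2-oxoglutarate to oxidize methylcytosine, which allows its removal by base excision repair or its dilution at replication. In mouse T cells Dnmt1 and Dnmt3a are known for keeping cytokine genes of other lineages silent, and Tet2 for supporting cytokine expression in helper T cells.

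The promoter windows of the members are shown first, because the study set out from where STAT4 and STAT6 bind DNA and because Dnmt1 moved with the genes of DNA replication. RefSeq (GRCm38.p6) gave 10 windows for the 6 genes, each from 250 bases before to 50 bases after an annotated start, 3 for Dnmt1, 3 for Dnmt3a and 1 for each other gene. The Dnmt1 window at chr9:20952574-20952873 (minus strand) is printed for its matches to the motif of E2F, the factor family that drives S-phase genes; capitals mark those matches. The first Dnmt3a window, chr12:3806730-3807029 (plus strand), and the Tet3 window, chr6:83441629-83441928 (minus strand), belong to the other members with the largest STAT6-loss differences and hold no match, so they have no capitals.
Dnmt1: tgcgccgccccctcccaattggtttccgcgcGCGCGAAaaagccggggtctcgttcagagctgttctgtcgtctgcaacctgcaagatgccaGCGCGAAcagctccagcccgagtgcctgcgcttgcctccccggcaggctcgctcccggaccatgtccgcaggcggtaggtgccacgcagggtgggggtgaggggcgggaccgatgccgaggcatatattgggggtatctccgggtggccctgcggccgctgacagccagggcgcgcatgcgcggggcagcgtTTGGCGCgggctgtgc
Dnmt3a: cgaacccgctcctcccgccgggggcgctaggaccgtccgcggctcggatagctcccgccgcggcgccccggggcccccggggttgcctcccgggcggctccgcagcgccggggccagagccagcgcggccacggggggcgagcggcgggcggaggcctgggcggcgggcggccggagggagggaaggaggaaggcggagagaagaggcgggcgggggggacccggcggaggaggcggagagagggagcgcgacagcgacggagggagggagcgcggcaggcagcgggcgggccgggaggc
Tet3: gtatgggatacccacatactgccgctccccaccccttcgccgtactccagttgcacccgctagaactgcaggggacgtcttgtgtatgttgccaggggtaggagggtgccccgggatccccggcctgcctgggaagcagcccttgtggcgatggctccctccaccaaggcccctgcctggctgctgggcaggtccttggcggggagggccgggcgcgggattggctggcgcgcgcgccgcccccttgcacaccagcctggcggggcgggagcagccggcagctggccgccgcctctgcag

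E2F was searched as TTGGCGC and TTCGCGC on both strands, none of whose matches overlapped in the printed window, and 3.89% of 32851 windows of the same length held either form. In the printed Dnmt1 window 2 matches of the second form lie before that window's own annotated start and 1 of the first form after it. The other Dnmt1 windows lie upstream on the minus strand, the nearer at chr9:20952930-20953229. The matches thus lie downstream of the other annotated Dnmt1 starts. The other 9 windows held none. The interferon-gamma-activated site bound by STAT proteins was searched as TTC followed by GAA with 3 bases between or, in the spacing that STAT6 favours, 4; 14.6% of all windows held either, and none of the 10 member windows did. Both shares are over windows of any base content. No share was taken among windows as rich in G, C and CpG as most member windows. A match describes letters and not a bound site, and no match says only that these letters are not in these windows. Counted as CpG, the substrate of these enzymes, the 300-base windows held 33 in the printed Dnmt1 window and 12 and 2 in its others, 46, 47 and 18 for Dnmt3a, 30 for Dnmt3b, 17 for Tet1, 57 for Tet2 and 22 for Tet3. The median of all windows was 7, so all but 1 of the member windows were above it. Of the 2 Dnmt3a windows with 46 and 47, the bases overlap.

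Values are log2 RMA expression, and a difference of 1 is 2-fold. A probe set was called where its difference reached 1 in size and at least 1 of its 2 arrays read 5.82 or more, the median over all arrays and non-control probe sets, here the level minimum. "Higher" and "lower" refer to such calls unless a value is given. Several probe sets of a gene disagreed in a given comparison with an SD of 0.48 (STAT4 loss), 0.65 (STAT6 loss), 0.71 (wild types) and 0.85 (STAT-deficient cells), which describes probe behaviour and not variation between mice or cultures. Over the genes at the level minimum the median difference was 0.13, -0.30, -0.37 and 0.02 in the same order. Of the genes called, 53.7% were higher for STAT4 loss (24.8% to 87.5% under 4 other scalings of the arrays), 26.5% for STAT6 loss (20.1% to 43.4%), 24.3% between the wild types (8.89% to 44.9%) and 55.1% between the STAT-deficient cells (18.8% to 68.4%).

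Some features of the arrays touch these values. The beta-actin control read higher at its 3′ than at its 5′ end by 2.08 log2 units on the STAT6-deficient array, and by 0.85 in its wild type; on the Th1 arrays the figure was 0.66 without STAT4 and 0.32 in wild type. Stat4 read 9.20 on the STAT4-deficient array against 11.45 in Th1 wild type. The brighter Stat6 probe set read 10.92 on the STAT6-deficient array and 10.93 in Th2 wild type, and the dimmer one 8.40 against 8.93. Whether the probes of either Stat6 probe set lie in the deleted part is not known here. All 9 measured genes of the helper T identity list, such as Cd3e and Cd4, were at the level minimum on every array, while of the 5 measured B cell markers 4 reached it on the STAT4-deficient array and 1 or 2 on the others. Summed linear levels of the myeloid and dendritic, mast cell and basophil, and CD8 and NK lists differed more with STAT6 than STAT4 loss. The B cell sum differed more with STAT4 loss, at 307 in STAT4-deficient against 236 in Th1 wild type cells. So did that of the 3 measured erythroid markers, at 133 against 98, with 97 against 82 for STAT6 loss. The summed linear level of 7 myeloid and dendritic markers was 332 in STAT6-deficient against 739 in Th2 wild type cells. Of these markers, 2 against 4 were at the level minimum. Adgre1 (-2.33), Itgax (-1.73) and Fcgr3 (-1.59) were lower. Csf1r read 7.06 against 7.07, with another probe set at -1.23. Lyz2 (0.39), Itgam (-0.43) and Cd14 (-1.06) were under the level minimum on both of these arrays. For the 5 mast cell and basophil markers the sum was 127 against 494, where Cpa3 (-3.74, at 4.90 against 8.64) was the only one called. Cpa3 makes up most of the wild type sum, and the other markers of this list were under the level minimum on both arrays. For the 5 measured CD8 and NK markers the sum was 3040 against 608, with Cd160 higher (4.39) and Cd8b1 lower (-2.07). Cd160, at 11.48 against 7.09, makes up most of the STAT6-deficient sum. The count at the level minimum went the other way, at 2 against 3. For the B cell markers the sum was 226 against 228, with Cd22 higher (1.04, another probe set at -0.45). The part of these cells in the STAT6-loss values of Dnmt1, Tet3 and the replication genes was not tested, nor was their part in the STAT4-loss values.

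**Figure D1:**
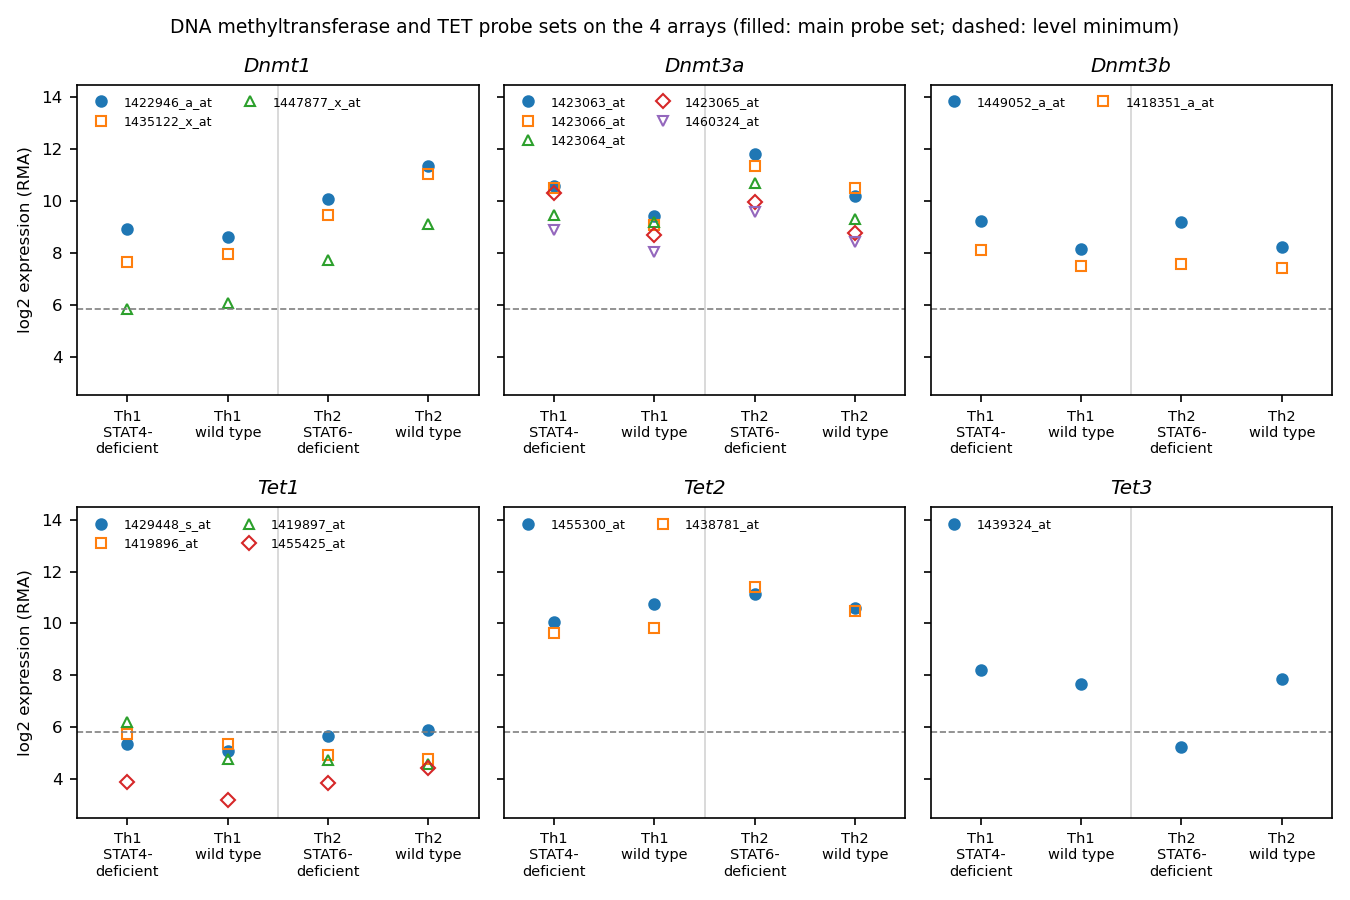
Log2 expression of each of the 17 probe sets (points) on the 4 arrays, 1 panel per gene, with the main probe set of the gene filled and the level minimum of 5.82 dashed. Dnmt1 is brightest in Th2 wild type cells, the 5 Dnmt3a probe sets sit higher in each STAT-deficient array than in its wild type, Tet1 lies around or under the minimum, and Tet3 is at 5.24 on the STAT6-deficient array.

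Dnmt1, the maintenance enzyme, differed more between the wild types than any other member. Its main (brightest) probe set read 8.92 in Th1 STAT4-deficient, 8.60 in Th1 wild type, 10.09 in Th2 STAT6-deficient and 11.37 in Th2 wild type cells. The second-brightest probe set read 7.64, 7.97, 9.48 and 11.03, and the dimmest read 5.84, 6.06, 7.73 and 9.12, in the same order of arrays. On all 3 probe sets Th2 wild type was highest, Th2 STAT6-deficient next and both Th1 arrays lowest. The IDs of the last 2 carry the suffix x, which marks probe sets with probes that may also bind other transcripts.

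Between the wild types Dnmt1 was lower in Th1 than in Th2 cells on 3 of 3 probe sets, by -2.77, -3.06 and -3.06 log2 units, the first of which is 6.83-fold. It was called under all 4 other scalings on each probe set, with values from -3.44 to -2.30. Among all probe sets at the level minimum in this comparison, 24.2% were lower in Th1. With STAT6 loss Dnmt1 was lower in Th2 cells on 3 of 3 probe sets, by -1.29, -1.55 and -1.39, of which the main one is 2.44-fold and lies 0.99 further down than the median gene. These calls also held under the 4 other scalings (-1.67 to -1.01), and 20.4% of all probe sets were lower in this comparison. The actin 3′ minus 5′ difference was larger on the same STAT6-deficient array; its part in the result was not tested. With STAT4 loss Dnmt1 was uncalled, at 0.32 on the main probe set and -0.34 and -0.21 on the others, all within the probe-set disagreement of 0.48, and the sign of the last 2 turned under hybridization control centring. Comparing the STAT-deficient cells, Dnmt1 was lower in Th1 than in Th2, by -1.17, -1.84 and -1.88, beside 11.7% of all probe sets; the main probe set fell short of the limit after quantile normalization and after loess, with a smallest difference of -0.91.

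Genes of DNA replication, a set added after the data were seen, ran beside Dnmt1. Of 19 such genes, among them the Mcm2 to Mcm7 helicase subunits, the ribonucleotide reductase gene Rrm2 and the origin licensing gene Cdc6, 17 were measured, and their median level was 8.49 in Th1 STAT4-deficient, 8.94 in Th1 wild type, 9.99 in Th2 STAT6-deficient and 11.69 in Th2 wild type cells. For 16 of the 17 the order Th2 wild type, then Th2 STAT6-deficient, then the Th1 arrays was that of Dnmt1, an order that 19.4% of all 13147 genes at the level minimum on any array shared. STAT6 loss gave 15 of 17 lower, beside 19.5% of all genes. Their median difference was -1.34, against -1.29 for Dnmt1 and -0.30 for all genes. Between the wild types 16 of 17 were lower in Th1, beside 25.4% of all genes. The median was -2.33, against -2.77 for Dnmt1 and -0.37 for all genes. Cdc6 read 4.24 in Th1 against 9.58 in Th2 wild type cells, and Tyms, for thymidylate synthase, 3.99 against 7.42. Both Th1 readings were under the level minimum, and counted only down to it the differences were -3.76 for Cdc6 and -1.60 for Tyms; another Tyms probe set differed by 0.51. The DNA ligase gene Lig1 and Gins1, a subunit of the replicative helicase, were at the level minimum on both arrays and differed by -3.49 each. Another Gins1 probe set differed by -0.61. STAT4 loss gave 2 of 15 lower, beside 5.34% of all genes, with a median of -0.36. In bulk RNA a smaller share of cycling cells and less of these transcripts per cell cannot be told apart.

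**Figure D2:**
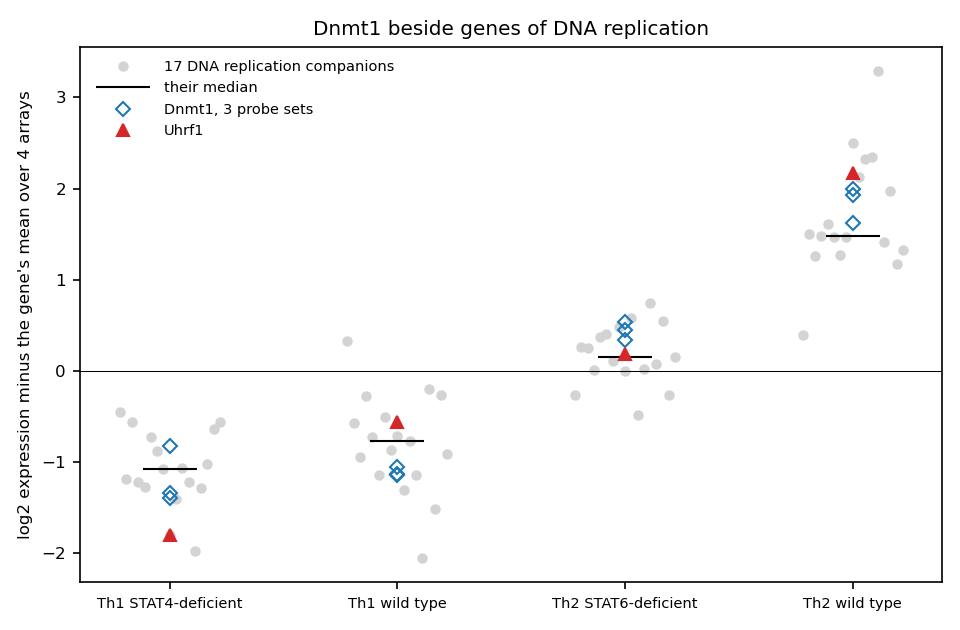
Log2 expression minus each gene's mean over the 4 arrays, for 17 genes of DNA replication (grey points, black bar their median), the 3 Dnmt1 probe sets (open diamonds) and Uhrf1 (triangles). Dnmt1 and Uhrf1 lie within the spread of the replication genes on each array, high in Th2 wild type and low in both Th1 arrays.

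Uhrf1, whose product recruits DNMT1 to hemimethylated DNA, read 6.95 in Th1 STAT4-deficient, 8.19 in Th1 wild type, 8.94 in Th2 STAT6-deficient and 10.91 in Th2 wild type cells. It was lower by -1.25 with STAT4 loss, by -1.98 with STAT6 loss and by -2.72 in Th1 against Th2 wild type. Its other probe set differed by -0.32 in the first comparison by -2.32 and -1.55 in the next 2 and by 0.45 between the STAT-deficient cells. Hells, a chromatin remodeller needed for normal methylation, was lower in Th1 than in Th2 wild type by -2.87 (another of its 3 probe sets differed by 0.25) and uncalled in both STAT losses, at 0.10 for STAT4 and -0.58 for STAT6.

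Dnmt3a, a de novo enzyme, stood higher in the absence of either STAT. Its main probe set read 10.56 in Th1 STAT4-deficient cells against 9.41 in Th1 wild type. In Th2 cultures it read 11.83 without STAT6, against 10.18 in wild type. The second-brightest read 10.52 against 9.06 in Th1 and 11.34 against 10.50 in Th2, again deficient cells against wild type. Another read 10.32 against 8.71 in Th1 and 9.97 against 8.75 in Th2. On these 3 probe sets each deficient array was the brighter of its pair, by at least 0.84. Of the remaining pair, the brighter read 9.47 against 9.20 in Th1 and 10.71 against 9.29 in Th2. The dimmer read 8.87 against 8.03 in Th1 and 9.57 against 8.43 in Th2. All 5 are annotated to 1 transcript sequence, so they are repeated readings of 1 transcript and not independent.

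With STAT4 loss 3 of 5 Dnmt3a probe sets were higher, at 1.15 (2.22-fold), 1.46 and 1.61, and the other two differed by 0.27 and 0.84, beside 6.69% of all probe sets called higher. With STAT6 loss 4 of 5 were higher, at 1.65 (3.15-fold), 1.42, 1.21 and 1.14, and the second-brightest differed by 0.84, beside 7.58% of all probe sets. The main probe set lay 1.03 above the median gene for STAT4 loss and 1.95 above it for STAT6 loss. Its STAT6-loss call held under all 4 other scalings (1.54 to 1.91), while its STAT4-loss call was lost after median centring, at 0.91; the other 2 calls for STAT4 loss held under all 4. Higher in both losses were 121 of the 10951 genes at the level minimum in both, or 1.10%. The 2 losses do not share an array.

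Between the culture conditions few Dnmt3a probe sets were called. In Th1 against Th2 wild type cells they differed by -1.44 to -0.05, with 1 of 5, the second-brightest, lower in Th1, beside 24.2% of all probe sets; that call was lost after quantile normalization, at -0.96. In the STAT-deficient cells they ran from -1.27 to 0.35, with 2 of 5 lower in Th1, beside 11.7% of all probe sets. Both of these calls were lost after quantile normalization, at -0.95 each, and that of the dimmer one also after loess.

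Dnmt3b, the second de novo enzyme, had the smallest range among the methyltransferases. Its main probe set read 9.24 in Th1 STAT4-deficient, 8.14 in Th1 wild type, 9.21 in Th2 STAT6-deficient and 8.22 in Th2 wild type cells. Both STAT-deficient arrays were about 1 log2 unit above both wild types, at 1.10 for STAT4 loss (called, 2.14-fold) and 0.99 for STAT6 loss (1.98-fold, just under the limit). The first value was 0.86 after median centring, and the second passed the limit under 3 of 4 other scalings, at up to 1.30. The dimmer probe set, annotated to the same sequence, read 8.10, 7.50, 7.58 and 7.42 in the same order and differed by 0.60 and 0.16, so it did not reach the limit in either loss. The culture conditions differed by -0.08 and 0.07 on the 2 probe sets in wild type cells. The RefSeq table lists a pseudogene of Dnmt3a and one of Dnmt3b, and what they add to these probe sets was not tested.

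**Figure D3:**
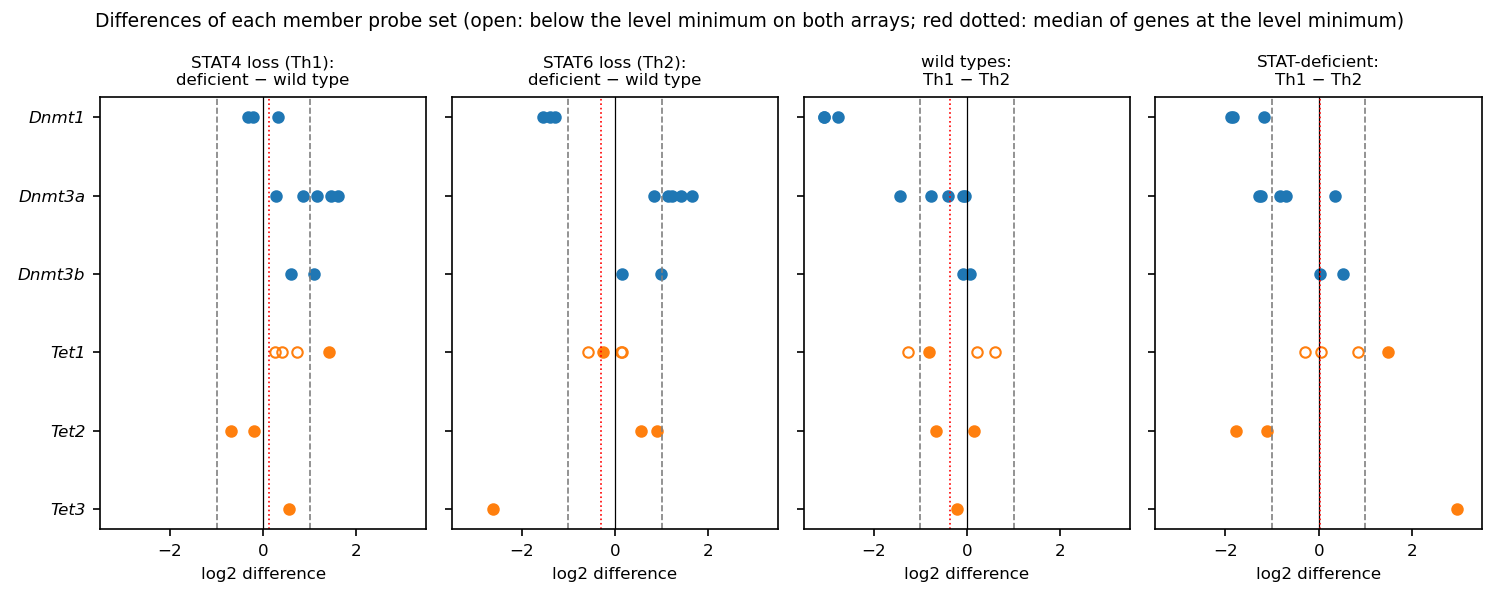
Log2 differences of each probe set in the 4 comparisons, methyltransferases in blue and TET genes in orange, with the 2-fold limits dashed and the median of the genes at the level minimum as a red dotted line. Dnmt3a and Dnmt3b lie to the right of 0 in both STAT losses, Dnmt1 lies beyond the lower limit in every comparison but STAT4 loss, and Tet3 is at -2.62 for STAT6 loss.

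Tet2, known for its role in blood cells, was bright on every array, and none of its probe sets was called in a STAT loss. Its main probe set read 10.04 in Th1 STAT4-deficient, 10.74 in Th1 wild type, 11.14 in Th2 STAT6-deficient and 10.59 in Th2 wild type cells. The second read 9.62, 9.81, 11.38 and 10.48. On both probe sets the STAT6-deficient array was highest and the STAT4-deficient array lowest. STAT4 loss gave -0.70 and -0.20 and STAT6 loss 0.55 and 0.91, none of which reached the limit; the last passed the limit under 3 of 4 other scalings, at up to 1.14. Between the STAT-deficient cells Tet2 was lower in Th1 by -1.10 and -1.77. The call of the first was lost under 3 of the 4 other scalings, with a smallest difference of -0.78, and that of the second held under all 4 (-2.14 to -1.46). Between the wild types the values were 0.15 and -0.66.

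Tet3 was lower with STAT6 loss, on its only probe set. It read 8.20 in Th1 STAT4-deficient, 7.64 in Th1 wild type, 5.24 in Th2 STAT6-deficient and 7.86 in Th2 wild type cells. The other arrays lay between 7.64 and 8.20, and the STAT6-deficient one stood apart, under the level minimum. The STAT6-loss difference was -2.62, with -2.74 to -2.10 under the 4 other scalings. Since the STAT6-deficient reading lies under the level minimum, its size is uncertain; counted only down to that minimum the difference was -2.04, or 4.10-fold. STAT4 loss gave 0.56, uncalled. Between the STAT-deficient cells Tet3 was 2.97 higher in Th1 (2.38, or 5.22-fold, down to the level minimum), beside 15.5% of all probe sets called higher, and the same STAT6-deficient array enters this value. That array also had the actin 3′ minus 5′ difference of 2.08, and no second Tet3 probe set was available to set beside it; its part in the result was not tested.

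Tet1, best known from embryonic stem cells, was dim. Of its 4 probe sets 2 were under the level minimum on all arrays and the other two reached it on 1 array each. The main one read 5.34 in Th1 STAT4-deficient, 5.08 in Th1 wild type, 5.63 in Th2 STAT6-deficient and 5.90 in Th2 wild type cells. The other that reached it read 6.20 in Th1 STAT4-deficient cells, against 4.78 in Th1 wild type, 4.71 in Th2 STAT6-deficient and 4.57 in Th2 wild type cells, which called it higher by 1.42 with STAT4 loss and by 1.49 in Th1 against Th2 STAT-deficient cells. These sizes are uncertain, since the dimmer arrays were under the level minimum. A probe set annotated to the same sequence read 5.74, 5.35, 4.90 and 4.75 and differed by 0.39 with STAT4 loss. The last ran from 3.16 to 4.43. The Tet1 probe sets thus did not show 1 pattern over the arrays, and nothing here bears on Tet1 below this level.

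Taken as genes by their main probe sets, 2 of the 5 members at the level minimum were higher with STAT4 loss (Dnmt3a, Dnmt3b) and none lower, beside 11.5% of all genes called in either direction, 6.18% higher and 5.34% lower. With STAT6 loss 1 of 6 was higher (Dnmt3a) and 2 were lower (Dnmt1, Tet3), beside 26.5% of all genes called, 7.01% higher and 19.5% lower. Between the wild types 1 of 6 was called, Dnmt1, beside 33.5% of all genes, 8.14% higher and 25.4% lower in Th1. Between the STAT-deficient cells 4 of 5 were called, with Tet3 higher and Dnmt1, Dnmt3a and Tet2 lower in Th1, beside 22.9% of all genes, 12.6% higher and 10.3% lower. Counted by probe set, 5 of 14 at the level minimum were called with STAT4 loss, 8 of 14 with STAT6 loss, 4 of 14 between the wild types and 9 of 14 between the STAT-deficient cells, beside 12.4%, 28.0%, 33.4% and 27.2% of all probe sets. The 14 include 5 of Dnmt3a, 3 of Dnmt1, 2 of Dnmt3b and 2 of Tet2, so they are repeated readings of few genes and not independent. With STAT4 loss none of the 14 was lower, beside 5.75% of all, and between the wild types none was higher in Th1, beside 9.24%. The 6 genes had a median difference of 0.44 with STAT4 loss and 0.15 with STAT6 loss, beside 0.17 and -0.19 over all genes measured. In the Th1 minus Th2 comparisons it was -0.49 in wild type and -0.70 in STAT-deficient cells, beside -0.10 and 0.21.

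**Figure D4:**
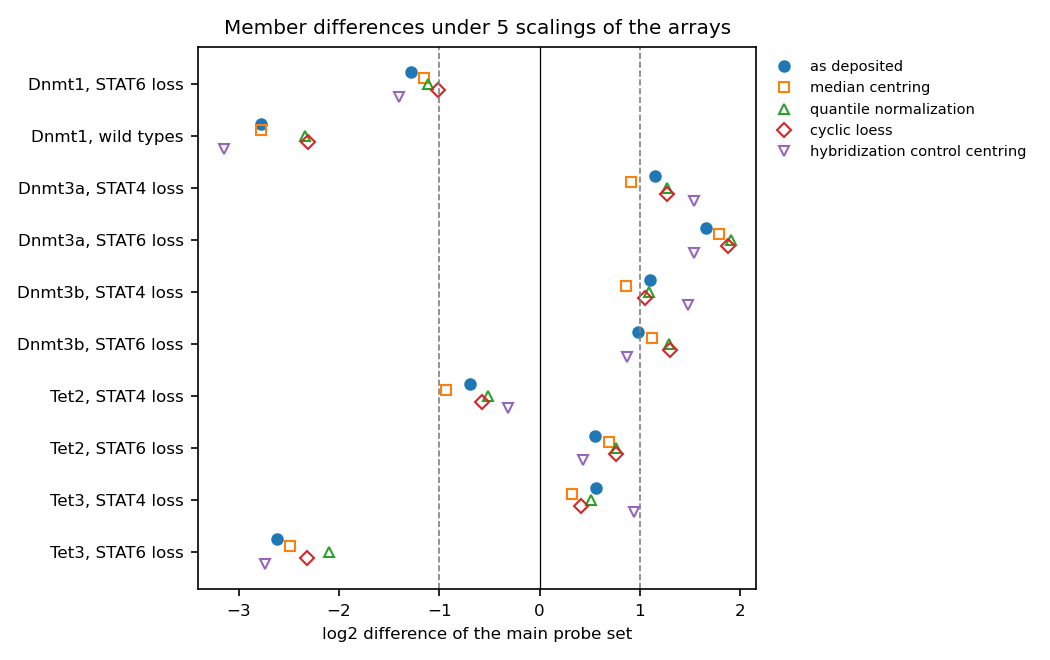
Log2 difference of the main probe set of Dnmt1, Dnmt3a, Dnmt3b, Tet2 and Tet3 in selected comparisons, as deposited (filled) and under 4 other scalings of the arrays (open), with the 2-fold limits dashed. No value changes sign; Dnmt3a with STAT4 loss runs from 0.91 to 1.54 and Tet3 with STAT6 loss from -2.74 to -2.10.

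Among 6 lists of partners of these enzymes, 41 of 48 genes were measured. With STAT4 loss 1 of 38 at the level minimum was higher and 3 were lower, with a median of 0.29 beside 0.13 for all genes, of which 6.18% were higher and 5.34% lower. The balance turned with the scaling, at 7 higher and 2 lower under hybridization control centring and 0 higher and 5 lower after median centring. The lower ones were Gadd45g, a stress-inducible gene linked to interferon gamma production in mouse Th1 cells (-2.45), Zbtb4, which encodes a zinc finger reader of methylated DNA (-1.55, with another probe set at 0.10), and Uhrf1. The higher one was Dnmt3l, the catalytically inactive relative of the DNMT3 enzymes, at 6.03 against 4.91 in wild type; counted only down to the level minimum the difference was 0.21.

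With STAT6 loss 3 of 38 partners were higher and 10 lower, with a median of -0.65 beside -0.30 for all genes, of which 7.01% were higher and 19.5% lower. After quantile normalization, as after loess, 3 were higher and 5 lower. Zbtb38, another zinc finger reader of methylated DNA, differed most, at 6.30 in STAT6-deficient against 9.51 in wild type cells (-3.21). The next lower ones were Uhrf1, the repair glycosylase gene Neil3 (-1.51), Gadd45a (-1.48), and Idh1 (-1.44), which makes 2-oxoglutarate, the cosubstrate of TET enzymes. Higher were Cxxc5, which encodes a CXXC zinc finger protein that binds CpG (1.98, or 1.41 down to the level minimum), the cytidine deaminase gene Apobec1 (1.72) and Gadd45b (1.59, with another probe set at 0.18). None of the 6 measured genes of the methyl donor cycle at the level minimum was called, and their values ran from -0.95 to 0.29.

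Between the wild types 15 of 39 partners were lower and 3 higher in Th1 than in Th2 cells, with a median of -0.82 beside -0.37 for all genes, of which 25.4% were lower and 8.14% higher. Quantile normalization gave 8 lower and 4 higher, and hybridization control centring 24 lower and 1 higher. After Hells and Uhrf1 the largest lower values were those of Neil3 (-1.96), Idh1 (-1.81), Smug1, a uracil glycosylase gene (-1.74), Idh2, the mitochondrial counterpart of Idh1 (-1.74, with another probe set at 0.26), and Zbtb38 (-1.55). Higher in Th1 were Zbtb4 (2.11) and 2 genes named after their values were seen, Gadd45b (1.31) and Gadd45g (1.19). Between the STAT-deficient cells 2 of 39 were higher and 6 lower in Th1, with a median of -0.15 beside 0.02 for all genes, of which 12.6% were higher and 10.3% lower. Zbtb38 (1.54) and Apobec2 (1.09) were higher, and Hells (-2.18), Uhrf1 (-1.99), Apobec1 (-1.71), Ahcyl1 (-1.29), Ogt (-1.28), whose product attaches to TET proteins, and Smug1 (-1.14) were lower. Other probe sets of Hells (0.57), Uhrf1 (0.45), Ahcyl1 (0.28) and Ogt (0.70) had the opposite sign. These lists describe counts and medians, and nothing particular to them was tested.

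**Figure D5:**
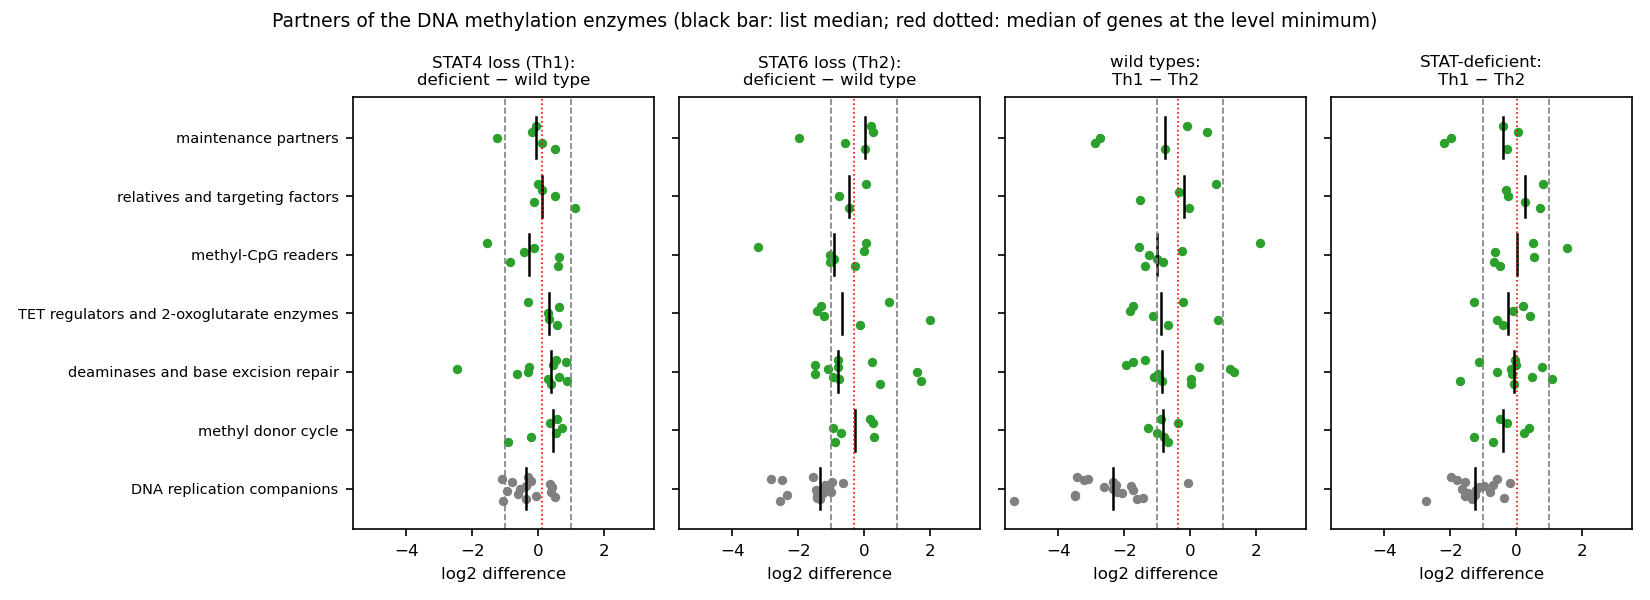
Log2 differences of the genes at the level minimum in the 6 partner lists (green) and of the DNA replication genes (grey) in the 4 comparisons, 1 point per gene, with list medians as black bars, the 2-fold limits dashed and the median of genes at the level minimum as a red dotted line. The replication genes shift furthest, to medians of -1.34 for STAT6 loss and -2.33 between the wild types.

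The genes with the pattern most like each member were looked up among 13147 genes, by the root mean square distance of values centred on the gene's own mean over the 4 arrays. Nearest to Dnmt1 were Spx (0.04), Gm15666 (0.06) and Depdc7 (0.06), and 58 genes lay within 0.25. Spx and Depdc7 reached the level minimum only in Th2 wild type cells, and Gm15666 was under it on both Th1 arrays. Abcd3 (0.09), Trmt1 (0.11) and Ttc27 (0.14) were nearest to Dnmt3a, with 38 genes within 0.25. Sdhaf1, Grip2 and Ecel1 (0.07 to 0.08) were nearest to Dnmt3b, and Gm11517, Vcpip1 and Ythdc1 (0.05 to 0.06) to Tet2. Tet3 had no gene within 0.25, and Smtn (0.26), Elovl7 (0.27) and Zpbp2 (0.27) came closest. Like Tet3, these were under the level minimum on the STAT6-deficient array, and they read at most 6.79 on any array. With 4 arrays such likeness is loose, and Tet1 spans less than 1 log2 unit on its main probe set and was not matched.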

How the data were processed

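Total RNA was measured with 4 Affymetrix mouse genome expression arrays, 1 a group. Per the submitters' processing notes the authors used RMA, which corrects the background and summarises each probe set, and they deposited its log2 values. The version, and whether the arrays were normalized together, are not given in the sources used here. Of 45101 probe sets 64 were array controls, and GEO's platform annotation gave 1 gene for 34945, several for 932 and none for 9160. Symbols were updated by gene ID through a RefSeq table of GRCm38.p6, which matched 34741 probe sets.

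Members were all probe sets annotated to 1 member symbol alone. Gene counts used the probe set with the highest mean of 4 arrays. A call needed a log2 difference of at least 1 and a brighter array at or above the pooled median of probe sets outside the controls. The members and lists were chosen with earlier results of these data known. Genes named from the lists are mostly called ones with the largest differences, at most 8 per comparison from the pathway lists and 4 from others. Exceptions include Gadd45b and Gadd45g between the wild types and Foxp3 with STAT4 loss, which were called. Hells and some cell type markers are also given with uncalled values. Genes with the most similar pattern were the 3 with the smallest root mean square distance between values centred on each gene's own mean.

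Python 3.11.15, pandas 2.3.3, R 4.3.3 and limma 3.58.1 (quantile, cyclic loess) were used, and the calling step was tested on simulated data. Alternatives were 4 scalings, 2 level minimums and a mean over a gene's probe sets. With 1 array per group no test was possible, and the number of arrays limits the precision. Promoter windows came from RefSeq (GRCm38.p6).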

Additional observations from a re-analysis of the deposited data

How the results depend on the processing

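No paired analysis was possible because each group has 1 array, and for the same reason no replicate could be left out. The count of member genes called for STAT4 loss, 2 as deposited, was 0 after median centring and 1 for the mean over a gene's probe sets; that between the STAT-deficient cells, 4, was 2 after loess and 1 after quantile normalization; that between the wild types, 1, was 2 after loess and 3 with hybridization control centring. The count for STAT6 loss, 3, ran from 3 to 4. Partner genes called for STAT4 loss were 9 with hybridization control centring, against 4 as deposited; for STAT6 loss 8 after loess and 8 after quantile normalization, against 13; between the STAT-deficient cells 4 after quantile normalization, against 8; and between the wild types 12 to 25, against 18; the cause was not tested. Of the replication genes, an alternative set added after the data were seen, 11 to 16 were lower for STAT6 loss and 14 to 16 between the wild types. For STAT4 loss they were 0 to 4 lower. No called difference of a member probe set changed sign under the 4 scalings. The median gene itself moved with them, for STAT4 loss between -0.15 and 0.53, so calls near 1 are not secure. Dim probe sets, those of Tet1 above all, are limited by signal near the level minimum.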

Other observations

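Genes that DNA methylation is known to hold silent outside the germ line stayed dim on all 4 arrays. Of 13 such germline genes, all measured, 3 reached the level minimum in Th1 STAT4-deficient, 2 in Th1 wild type, 2 in Th2 STAT6-deficient and 1 in Th2 wild type cells. Tdrkh was the brightest exception, at 7.58 in Th2 STAT6-deficient and 7.56 in Th2 wild type cells against 5.63 without STAT4 in Th1 cells, whose wild type read 4.44; it is also used outside the germ line. The main probe set of Brdt differed by -1.66 with STAT4 loss, at 4.90 against 6.56, and another by 1.22, so Brdt had no single direction.

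Of 20 imprinted genes, whose expression from 1 parental copy depends on methylation, 18 were measured and 12 reached the level minimum in each STAT loss. Igf2r was higher (1.08) and Plagl1 lower (-1.36, with another probe set at 0.28) with STAT4 loss. With STAT6 loss Plagl1 was higher (1.07, and 0.71 on the probe set that differed least). The main probe set of Kcnq1ot1 differed by 1.29 and another by -0.29, and that of Grb10 by -1.43, at 4.90 against 6.33, and another by 0.53. Plagl1 thus read 8.66 in Th1 STAT4-deficient, 10.02 in Th1 wild type, 10.77 in Th2 STAT6-deficient and 9.70 in Th2 wild type cells; a difference between the 2 losses was not tested. Expression per parental copy was not measured.

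Of 8 measured helper T genes with methylation-linked expression, 3 were higher and 2 lower with STAT4 loss, among 6 at the level minimum. Of all genes 6.18% were higher and 5.34% lower. Il10 (-6.80) and Ifng (-4.14) were lower, and Il4 (3.01) and Il13 (2.85) were higher. Foxp3 was also higher (2.47, at 6.81 against 4.34), but by 0.99 counted only down to the level minimum. With STAT6 loss 2 of 7 were higher and 2 lower, beside 7.01% and 19.5% of all genes. Il10 (-7.26) and Il5 (-6.36) were lower, and Il2 (2.31) and Ifng (2.02) were higher. Dnmt3a was higher in both losses. In each loss these genes were called in both directions, with Il10 lower in both. A link between Dnmt3a and these genes was not tested.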
